A study of Mus musculus with 4 samples.

Results

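A set of 40 antioxidant, glutathione and metallothionein genes was followed in cancer-associated fibroblasts (CAFs), the fibroblasts that live within a tumour. They were taken by gene symbol from a list chosen with earlier results of these data known. The list covers the NRF2 pathway, glutathione and thioredoxin enzymes, peroxide and superoxide removal, metallothioneins and ferritin. All 40 symbols were among the 23377 rows of the count table, and 39 of them were among the 12001 genes with enough reads to be tested; Gstt2 was the exception. The samples were polyadenylated RNA of mouse CAFs in 4 libraries. The 2 libraries named RES4 carry the phenotype label of fibroblasts associated with a resistant tumour, and the 2 named WTA that of fibroblasts associated with a normal tumour. The labels name no mouse strain, age, genotype, drug treatment or cell sort for either group. Each group has 1 name with a replicate number. The design text calls the replicates biological, and nothing says whether they came from separate cultures, animals or tumours, so a p-value here reflects only how far these libraries spread, which may be technical. Any trait of the single RES4 or WTA source cannot be told apart from the resistance label. The study concerns resistance to MET and EGFR inhibitors that arises outside the cancer cell, and the comparison asks how the fibroblasts' antioxidant genes differ between the 2 kinds of tumour.

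Oxidants such as superoxide and hydrogen peroxide arise in respiration and from oxidases. Superoxide dismutases turn superoxide into hydrogen peroxide, which catalase, glutathione peroxidases and peroxiredoxins reduce further. Glutathione, a small thiol made by the GCL and GSS enzymes, is kept reduced by glutathione reductase, and thioredoxin by thioredoxin reductase. The transcription factor NRF2, held back by KEAP1, induces many of these genes, glutathione transferases attach glutathione to reactive compounds, and metallothioneins and ferritin bind zinc, copper and iron.

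Library totals ran from 2785936 to 5558541 reads, and the 40 genes took between 0.438% and 0.624% of them. Levels are given as CPM, in which every library's reads are brought to the same total after TMM adjustment. The fibroblast label was checked against 11 markers. Their summed level was 7513 and 7172 CPM in RES4 and 3458 and 2936 CPM in WTA, and 9 of 10 tested were higher in RES4. The 10 Schwann cell and neural crest markers summed to 257 and 283 CPM in RES4 and 1385 and 1230 CPM in WTA, with 6 of 8 tested lower and 2 higher in RES4. Sox10, the defining factor of that lineage, stood at 0.761 and 0.367 CPM in RES4 and at 185 and 138 CPM in WTA. Marker levels moved with the groups, and their part in the results below was not tested. In such bulk RNA, fewer cells of a type and less RNA per cell cannot be told apart. Of 10 macrophage markers, which summed to 21.3 and 29.4 CPM in RES4 and 8.42 and 9.76 CPM in WTA, Ptprc, C1qa and C1qb had no read in any library. The globin genes Hbb-b1, Hbb-b2, Hba-a1 and Hba-a2 had none either. The 7 endothelial markers stayed between 1.47 and 5.95 CPM in sum. Pericyte and smooth muscle markers summed to 317 and 432 CPM in RES4 and 848 and 715 CPM in WTA. Adipocyte markers (with Adipoq, Lep and Cidec at 0) summed to 51.0 and 62.4 CPM in RES4 and 2.97 and 1.85 CPM in WTA. Epithelial markers (with Epcam and Cdh1 at 0) summed to 45.7 and 63.9 CPM in RES4 and 9.66 and 9.26 CPM in WTA. Krt19 made up all of that sum in RES4, where the other epithelial markers had no read. Krt8, Krt14 and Krt18 had reads in WTA only.

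Of the 39 genes tested, 11 were higher and 3 lower in RES4 at an adjusted p under 0.05 (edgeR's quasi-likelihood test with Benjamini-Hochberg adjustment over all genes, used for every adjusted p below unless another tool is named). Together that is 35.9%, against 29.4% of all genes tested. By direction, the background was 15.5% higher and 13.9% lower, the shares against which each family count below is to be read. The median log2 fold change was 0.56 among the 39 and 0 among all genes tested. It was 0.35 among the 464 tested genes with 0.5 or more reads per transcript base, where 11 of the 39 had a median of 0.52. The genes of the set that rose were 6 glutathione transferases, Nqo1, Hmox1, Sod3, Prdx5 and Fth1. Those that fell were Gsr, Txnrd1 and Gclm, which reduce oxidised glutathione, reduce oxidised thioredoxin and help to make glutathione. Of the 14, 8 were called under each of 11 alternative settings, namely Nqo1, Sod3, Gsr, Txnrd1 and the transferases Gsta4, Gstm1, Gstt1 and Mgst1. Of the 25 genes not called, 19 had a positive and 6 a negative log2 fold change, from -0.67 to 0.96, and 6 had an unadjusted p under 0.05. Over all genes tested, 39.4% had an unadjusted p under 0.05, the share against which such counts below are to be read. The ranges of the groups did not overlap for 34 of the 39, 28 of them higher in RES4 and 6 lower, where 64.7% of all genes tested had ranges apart (31.9% higher, 32.9% lower). Those shares also apply to each gene below whose groups are said to lie apart. The authors' deposited table called 6 of the 40 upregulated and 1 downregulated in RES4, against 8.5% of its 15879 genes called. Those calls rest on the authors' own fit and threshold, with Nqo1 called at their adjusted p of 0.0591. Of the 14 genes called here, the authors left Hmox1, Gclm, Txnrd1, Gstm2, Mgst3, Prdx5 and Fth1 uncalled.

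**Figure D1:**
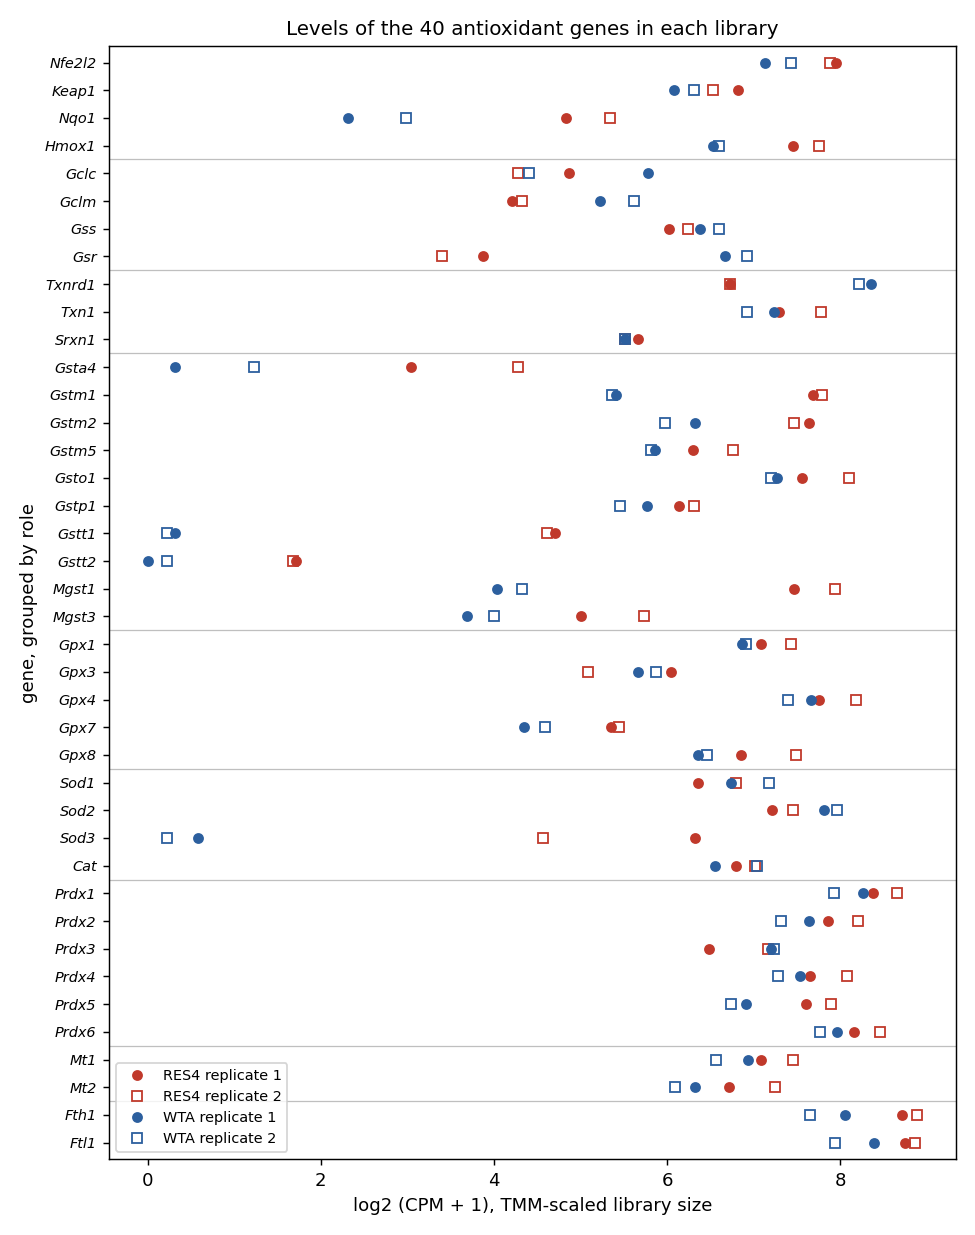
Level of each of the 40 genes in each library, as log2 (CPM + 1) on the x axis, with genes on the y axis grouped by role between the grey lines. Red marks are RES4 and blue marks WTA, filled circles replicate 1 and open squares replicate 2. Gsr and Txnrd1 have both RES4 marks left of both WTA marks, and Sod3, Gstt1 and Mgst1 have them far to the right.

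NRF2 is encoded by Nfe2l2, whose level was 247 and 234 CPM in RES4 and 139 and 171 CPM in WTA. Its log2 fold change of 0.63 ± 0.26 (SE) had an adjusted p of 0.0869. Keap1, the adaptor that marks NRF2 for degradation, stood at 112 and 91.4 CPM in RES4 and at 66.9 and 78.4 CPM in WTA, with a log2 fold change of 0.49 ± 0.32 (adjusted p = 0.296). For both genes each RES4 library lay above each WTA library, and neither passed the test.

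Nqo1, the quinone reductase that is a standard readout of NRF2, had 27.4 and 39.6 CPM in RES4 and 3.96 and 6.90 CPM in WTA. It rose by 2.60 ± 0.48 on the log2 scale, 6.05-fold, with adjusted p = 0.00132. Over the alternatives its log2 fold change stayed between 2.22 and 3.03, and its adjusted p was at most 0.0227. Hmox1, heme oxygenase 1, which breaks heme down and releases iron, had 174 and 216 CPM in RES4 and 91.2 and 95.8 CPM in WTA. It rose by 1.06 ± 0.28 (adjusted p = 0.0128), with the lower RES4 library clearly above the higher WTA library. Without WTA replicate 1 or replicate 2 its log2 fold change was 0.96 or 1.06 and did not pass (adjusted p = 0.268 and 0.239).

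Glutathione itself is made and kept reduced by 4 of the genes, and all 4 had a negative log2 fold change, with a median of -0.94. Gsr, glutathione reductase, which regenerates reduced glutathione with NADPH, was counted 36 and 26 times in RES4 and 407 and 715 times in WTA. Its level was 13.7 and 9.54 CPM in RES4 and 101 and 120.3 CPM in WTA. The WTA level was thus 9.51-fold higher in the fit, a log2 fold change of -3.25 ± 0.40 with adjusted p = 7.98e-05, and it lay between -3.53 and -3.01 over the alternatives. The groups were far apart, the highest RES4 library standing at a small part of the lowest WTA library. Gclm, the modifier subunit of the rate-limiting glutathione synthesis enzyme, stood at 17.5 and 19.1 CPM in RES4 and at 36.4 and 48.1 CPM in WTA, a log2 fold change of -1.21 ± 0.41 with adjusted p = 0.0405. That call was lost with abundance offsets, which remove each library's trend along mean expression (adjusted p = 0.0647), and without RES4 replicate 1 (0.0580), WTA replicate 1 (0.110) or WTA replicate 2 (0.365).

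Gclc, the catalytic subunit of the same enzyme, had 28.2 and 18.4 CPM in RES4 and 54.0 and 20.2 CPM in WTA. The groups overlapped, the WTA replicates differed more from each other than the group means did, and the log2 fold change was -0.67 ± 0.50 (adjusted p = 0.362). Without WTA replicate 1 it turned to 0.13. Gss, glutathione synthetase, which performs the last step, had 63.9 and 74.5 CPM in RES4 and 82.5 and 96.3 CPM in WTA, with -0.37 ± 0.33 (adjusted p = 0.445).

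The thioredoxin arm holds 3 of the genes. Txnrd1, the cytosolic thioredoxin reductase, had 105.0 CPM in each RES4 library and 328 and 298 CPM in WTA. It was 2.98-fold higher in WTA, a log2 fold change of -1.57 ± 0.25 (adjusted p = 5.22e-04), and lay between -1.72 and -1.55 over the alternatives. Its substrate Txn1, thioredoxin, went the other way in value, with 156 and 219 CPM in RES4 and 149.6 and 121 CPM in WTA, a log2 fold change of 0.47 ± 0.29 that did not pass (adjusted p = 0.250). It passed without RES4 replicate 1 (0.70, adjusted p = 0.0421). Srxn1, sulfiredoxin, which restores overoxidised peroxiredoxins, differed little in value, with 49.9 and 44.8 CPM in RES4 and 44.8 in both WTA libraries (0.08 ± 0.36, adjusted p = 0.899).

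**Figure D2:**
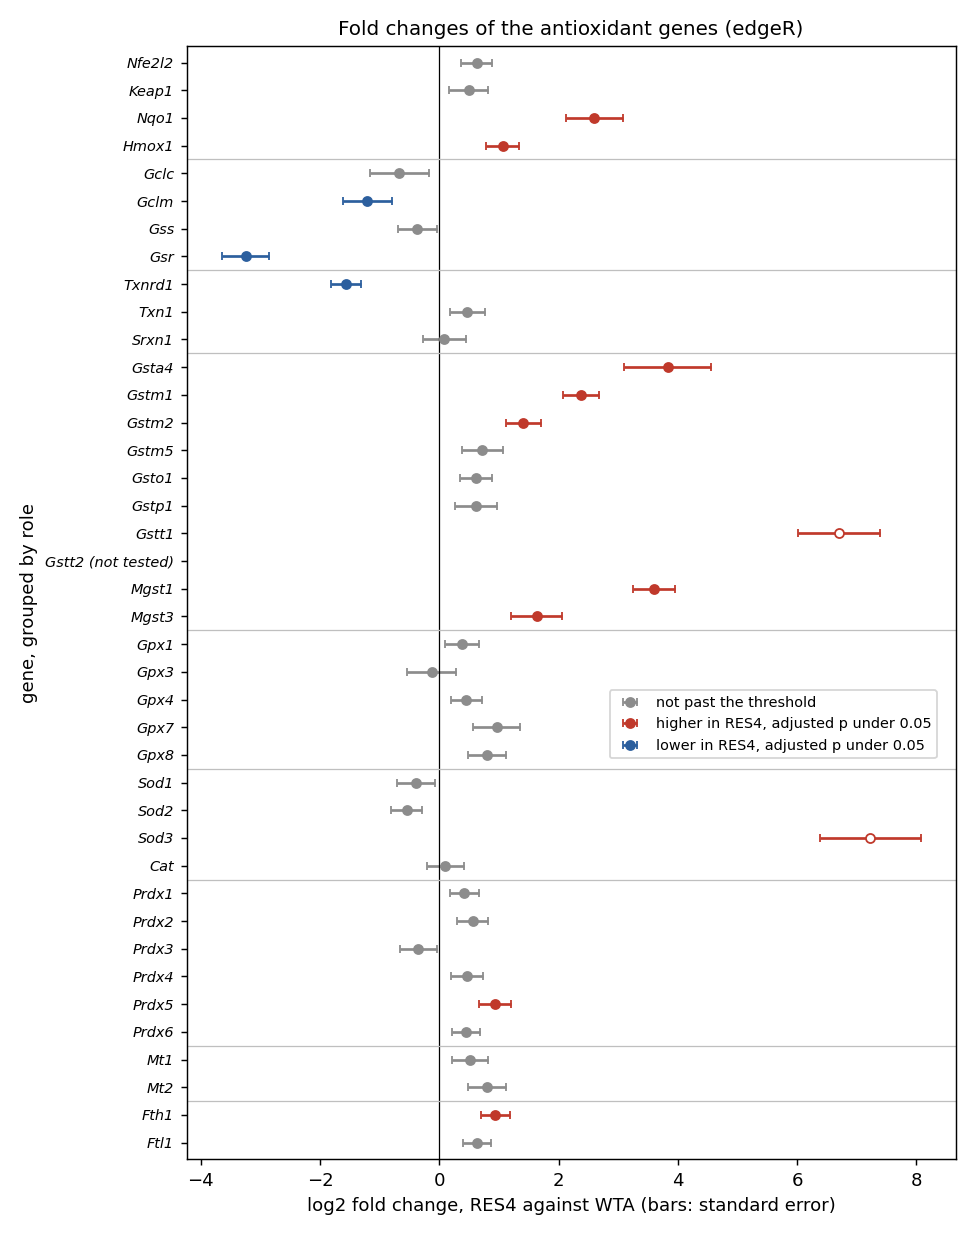
Fitted log2 fold change of RES4 against WTA for the 39 tested genes (points) with its standard error (bars), grouped by role. Red points were called higher, blue points lower and grey points neither; open points (Gstt1, Sod3) rest on 3 or fewer WTA reads, so their position depends on the fit. The transferases lie to the right of 0, and the 4 glutathione synthesis and reduction genes lie to its left.

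Glutathione transferases conjugate glutathione to electrophiles such as lipid peroxidation products. Of 9 tested, 6 rose and 0 fell, and each of the 9 had a positive log2 fold change, with a median of 1.63. At an unadjusted p under 0.05 the test gave 7 of the 9, and DESeq2 called 6. Mgst1, a membrane-bound transferase with peroxidase activity, had 175 and 245 CPM in RES4 and 15.4 and 19.0 CPM in WTA, 12.2-fold higher in RES4, with a log2 fold change of 3.60 ± 0.35 and adjusted p = 1.78e-05. Its relative Mgst3 stood at 31.2 and 52.1 CPM in RES4 and at 11.9 and 15.0 CPM in WTA, and rose by 1.63 ± 0.43 (adjusted p = 0.0134). Mgst3 did not pass without RES4 replicate 2 (adjusted p = 0.0583), WTA replicate 1 (0.182) or WTA replicate 2 (0.0881).

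The mu class genes lie next to each other on chromosome 3. Gstm1 had 205 and 221 CPM in RES4 and 41.4 and 40.2 CPM in WTA, and rose by 2.38 ± 0.30 (adjusted p = 8.64e-05). Gstm2 stood at 199 and 176 CPM in RES4 and at 78.8 and 62.1 CPM in WTA, and rose by 1.41 ± 0.30 (adjusted p = 0.00312), a call lost without WTA replicate 1 (adjusted p = 0.0586) or WTA replicate 2 (adjusted p = 0.173). Gstm5 had 77.6 and 108 CPM in RES4 and 57.2 and 55.2 CPM in WTA, and its 0.72 ± 0.34 did not pass (adjusted p = 0.137), except without RES4 replicate 1 (adjusted p = 0.0188). The non-member Gstm4, the neighbour of Gstm1 in the RefSeq gene order, had 174 and 222 reads in RES4 and 13 and 14 reads in WTA, a log2 fold change of 4.73 ± 0.47 (adjusted p = 2.01e-05). Along the cluster the order in RefSeq is Gstm5, Gstm7, Gstm6, Gstm3, Gstm2, Gstm1, Gstm4. Gstm2, Gstm1 and Gstm4 were called, Gstm7 stood at -0.18 (adjusted p = 0.859), and Gstm6 and Gstm3 had too few reads to test. These genes resemble each other, so 50-base stretches of their main transcripts were looked up in all other GENCODE transcripts. In Gstm1 23.1% of them, in Gstm2 9.36% and in Gstm5 14.4% also occurred in another gene or pseudogene. How reads from such stretches were counted is not stated.

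The theta class was nearly silent in WTA. Gstt1 had 66 and 64 reads in RES4 and 1 read in each WTA library, a ratio of pooled CPM of 121 (95% exact counting interval 32.9 to 1011), and it rose with adjusted p = 2.36e-05. Gstt2 had 6 reads in each RES4 library and 1 in all WTA reads, a ratio of 22.4 (95% counting interval 3.31 to 956). It did not pass the low-count filter. Without that filter it was called higher (adjusted p = 0.0211). The neighbouring non-member Gstt3 had 51 reads in each RES4 library and 1 in WTA, a ratio of 190.1 (33.4 to 7582), with adjusted p = 4.97e-05. The cluster on chromosome 10 runs Gstt3, Gstt1, Gstt4, Gstt2 in RefSeq, and Gstt4 had no read in any library. No 50-base stretch of Gstt1 or Gstt2 occurred in another gene. The intervals reflect counting error alone, and reads without molecular identifiers are not independent molecules.

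Gsta4, the alpha class enzyme for the lipid peroxidation product hydroxynonenal, had 19 and 50 reads in RES4 and 1 and 8 in WTA. It rose by 3.83 ± 0.73 (adjusted p = 0.00170), and was called in each alternative. Its log2 fold change was 3.01 without RES4 replicate 2, 3.16 without WTA replicate 1 and 5.46 without WTA replicate 2. The omega and pi class genes Gsto1 and Gstp1 had 0.62 ± 0.27 and 0.62 ± 0.35 (adjusted p = 0.113 and 0.212). Gsto1 stood at 188 and 273 CPM in RES4 and at 153 and 147 CPM in WTA, and passed without RES4 replicate 1 (adjusted p = 0.0122). Gstp1 had 69.6 and 78.5 CPM in RES4 and 53.5 and 42.8 CPM in WTA. Of its 50-base stretches 62.3% also occur in Gstp2, so reads of the 2 genes may have been split or dropped.

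Glutathione peroxidases reduce hydrogen and lipid peroxides. With edgeR's test 0 of the 5 were called, against 2 at an unadjusted p under 0.05 and 0 with DESeq2. Gpx8, a peroxidase of the endoplasmic reticulum, had 115 and 178 CPM in RES4 and 81.3 and 87.0 CPM in WTA (0.80 ± 0.32, adjusted p = 0.0797). Gpx7, of the same compartment, had 39.95 and 42.6 CPM in RES4 and 19.3 and 23.1 CPM in WTA (0.96 ± 0.39, adjusted p = 0.0879). Both genes had each RES4 library above each WTA library, and Gpx8 passed without RES4 replicate 1 (adjusted p = 0.00664).

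Gpx4, the selenoenzyme that guards membrane lipids against ferroptosis, stood at 215 and 289.6 CPM in RES4 and at 201 and 168 CPM in WTA, with 0.45 ± 0.26 (adjusted p = 0.231). It passed without RES4 replicate 1 (0.66, adjusted p = 0.0442) and stood at 0.13 with density offsets, and 68.9% of its 50-base stretches occur in another gene or pseudogene. The cytosolic Gpx1 had 135 and 171 CPM in RES4 and 116 and 119 CPM in WTA (0.38 ± 0.28, adjusted p = 0.358). Gpx3, the secreted plasma form, had 65.1 and 33.0 CPM in RES4 and 49.6 and 57.4 CPM in WTA. Its RES4 replicates lay on either side of WTA, and its -0.13 ± 0.41 took the other sign in 2 of the 11 alternatives.

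Of the 3 superoxide dismutases and catalase, 1 rose and 0 fell, 25% called against 29.4% of all genes tested. Sod3, the secreted dismutase that binds to the matrix, had 207 and 62 reads in RES4 and 2 and 1 in WTA. The ratio of pooled CPM was 167 (95% counting interval 56.6 to 816), with adjusted p = 5.41e-05. Its RES4 replicates were themselves apart, at 78.8 and 22.8 CPM. It was called in each alternative, and its fitted log2 fold change of 7.23 became 6.10 without RES4 replicate 1, 7.89 without RES4 replicate 2, 7.90 without WTA replicate 1 and 6.52 without WTA replicate 2. The mitochondrial Sod2 had 148 and 175 CPM in RES4 and 223 and 249 CPM in WTA, both RES4 libraries below both WTA libraries, with -0.55 ± 0.26 (adjusted p = 0.134). The cytosolic Sod1 had 80.7 and 110.5 CPM in RES4 and 106 and 144 CPM in WTA, with overlapping groups (-0.39 ± 0.32, adjusted p = 0.412). Catalase (Cat), the peroxisomal enzyme that splits hydrogen peroxide, had 110.3 and 129 CPM in RES4 and 92.9 and 131 CPM in WTA (0.10 ± 0.31, adjusted p = 0.853), and no difference was detectable at this depth.

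Peroxiredoxins are abundant thiol peroxidases, most of them served by thioredoxin. Of the 6, 1 rose and 0 fell, 16.7% called against 29.4% of all genes tested. Prdx5, found in mitochondria, peroxisomes and cytosol, had 194 and 237 CPM in RES4 and 119 and 106 CPM in WTA, and rose by 0.94 ± 0.27 (adjusted p = 0.0206). It did not pass without WTA replicate 1 or 2 (adjusted p = 0.245 and 0.394). Of its 50-base stretches 29.7% overlap Trmt112 on either strand. Prdx1, Prdx2, Prdx4 and Prdx6 had log2 fold changes of 0.42, 0.56, 0.47 and 0.45, with adjusted p from 0.132 to 0.222. Prdx1 was the highest of them in CPM, at 333 and 402 in RES4 and 306 and 242 in WTA. In each of these 4 genes both RES4 libraries stood above both WTA libraries, as they did in 31.9% of all genes tested. Prdx3, the mitochondrial form, was the exception in sign, with 88.3 and 143 CPM in RES4 and 146 and 150.0 CPM in WTA (-0.35 ± 0.31, adjusted p = 0.442). It passed as lower without RES4 replicate 2 (-0.75, adjusted p = 0.0415).

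Metallothioneins are small cysteine-rich proteins that bind zinc and copper and scavenge oxidants. Neither gene was called by edgeR or DESeq2, and 1 of the 2 had an unadjusted p under 0.05. Mt1 had 134 and 174 CPM in RES4 and 121 and 93.4 CPM in WTA, a log2 fold change of 0.52 ± 0.30 (adjusted p = 0.221). Mt2 had 104 and 150.5 CPM in RES4 and 78.8 and 67.3 CPM in WTA, with 0.80 ± 0.32 (adjusted p = 0.0839), and passed without RES4 replicate 1 (1.05, adjusted p = 0.0103). In both genes each RES4 library exceeded each WTA library, and the RES4 replicates differed from each other. Mt3 and Mt4, their neighbours on chromosome 8, had no read in any library, which allows up to 3 reads in each. Of the 50-base stretches of Mt2, 45.5% also occur in Gm45774, and none of Mt1.

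The windows before the metallothionein genes and before Mgst1 and Gstt1, the 2 called genes with the largest fitted fold changes among those with a promoter entry, show which short motifs stand there. Sequences are the 250 bases before the RefSeq start (GRCm38.p6, a later build than the mm9 named for the counts), 5′ to 3′ on the gene's strand. Capitals mark matches on either strand to the core of the antioxidant response element bound by NRF2, TGACNNNGC, or to the core of the metal response element bound by MTF1, searched as TGCACNC and TGCGCNC. No capital stretches of the 2 motifs overlap in these windows. The windows are Mt1 at chr8:94178839-94179088, plus strand, Mt2 at chr8:94172368-94172617, plus strand, Mgst1 (the first of 2 starts) at chr6:138140277-138140526, plus strand and Gstt1 at chr10:75797732-75797981, minus strand.
Mt1: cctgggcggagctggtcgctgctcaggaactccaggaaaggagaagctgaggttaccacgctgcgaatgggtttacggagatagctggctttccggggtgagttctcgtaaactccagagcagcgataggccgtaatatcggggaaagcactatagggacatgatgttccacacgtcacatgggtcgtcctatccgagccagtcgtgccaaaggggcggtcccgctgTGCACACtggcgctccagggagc
Mt2: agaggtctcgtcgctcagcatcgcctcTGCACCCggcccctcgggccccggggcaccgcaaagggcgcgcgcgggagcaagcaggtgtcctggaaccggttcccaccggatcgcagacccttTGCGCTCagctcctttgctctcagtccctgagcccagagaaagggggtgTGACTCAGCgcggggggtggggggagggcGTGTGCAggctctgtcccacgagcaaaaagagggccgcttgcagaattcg
Mgst1: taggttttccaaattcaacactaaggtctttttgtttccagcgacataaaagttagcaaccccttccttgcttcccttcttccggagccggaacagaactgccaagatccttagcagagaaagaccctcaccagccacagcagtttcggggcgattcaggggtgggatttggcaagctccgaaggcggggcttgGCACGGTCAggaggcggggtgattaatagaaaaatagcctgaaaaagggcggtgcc
Gstt1: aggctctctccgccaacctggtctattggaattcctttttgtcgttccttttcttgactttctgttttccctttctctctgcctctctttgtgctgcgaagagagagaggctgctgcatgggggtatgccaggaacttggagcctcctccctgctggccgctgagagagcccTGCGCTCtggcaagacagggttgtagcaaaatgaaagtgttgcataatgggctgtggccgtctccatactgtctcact
Mt2 held 3 matches to the metal response core, starting 223, 128 and 50 bases before the gene, and 1 match to the antioxidant response core at 79, written TGACTCAGC. Mt1 held 1 metal response match at 23, Mgst1 1 antioxidant response match at 56 and Gstt1 1 metal response match at 78. Only these 250 bases were searched, so matches after the listed start or further upstream are not counted. Other spellings of the cores were not searched either. The near spelling TGAGTCAGC, for example, stands in the windows of Srxn1 and Gstp1 and is not counted. Among all 32851 such windows, 10.2% held the antioxidant and 21.4% the metal response core. A promoter was matched for 33 of the 40 genes. The antioxidant response core stood in the first-listed window of 7 of the 33, namely Nfe2l2, Gclm, Gstm5, Mgst1, Sod1, Prdx1 and Mt2. That is 1 of 8 genes that rose, 1 of 2 that fell and 5 of 23 that were not called. The metal response core stood in 9 of the 33, which were 2 of 8 that rose (Gstm1 and Gstt1), 1 of 2 that fell (Gclm) and 6 of 23 not called (Srxn1, Gstm5, Gpx7, Prdx4, Mt1 and Mt2). Txnrd1, which fell, held the antioxidant response core in the second of its 3 windows (GCTTTGTCA on the gene's strand, 92 bases before that start). Nqo1, which rose, had no match in its window. A match describes letters only and shows no binding.

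Ferritin stores iron in a shell of heavy and light chains. Fth1, the heavy chain with ferroxidase activity, had 419 and 473 CPM in RES4 and 265 and 200.5 CPM in WTA, and rose by 0.94 ± 0.24 (adjusted p = 0.0116). It did not pass without WTA replicate 2 (0.71, adjusted p = 0.296) or with density offsets (0.50, adjusted p = 0.0791). Ftl1, the light chain, had 430.3 and 466 CPM in RES4 and 335 and 244 CPM in WTA, with 0.63 ± 0.24 (adjusted p = 0.0703). Of its 50-base stretches 90.6% occur in other genes or pseudogenes, 17 of them, so its count depends strongly on how such reads were handled.

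Scaled by the length of 1 main GENCODE transcript per gene, the ferritin genes were the most abundant of the 39, with Fth1 at 479.7 and Ftl1 at 463 CPM per kb in RES4, and 251 and 299 CPM per kb in WTA. The next in RES4 were Mt1 (281), Gpx4 (263), Mt2 (249) and Prdx4 (237 CPM per kb). Fth1 (450.5 and 509 CPM per kb in the RES4 replicates) and Ftl1 (445 and 482) overlapped, as did Mt1 (245 and 317) with Gpx4, Mt2 and Prdx4. In RES4 the ferritin pair lay above Mt1 without overlap. In WTA, Fth1 (285 and 216 CPM per kb) overlapped Mt1 (221 and 170) and Sod1 (165 and 224). At the bottom in RES4 stood Gclm (3.27), Gsr (4.35) and Gclc (6.79 CPM per kb). Gsr was at 41.4 CPM per kb in WTA, near Cat (42.8) and Gss (45.5). Mgst1, at 14.7 CPM per kb in WTA, was close to Srxn1 (15.9) there, and in RES4 its 180.0 CPM per kb was close to that of Txn1 (178).

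**Figure D3:**
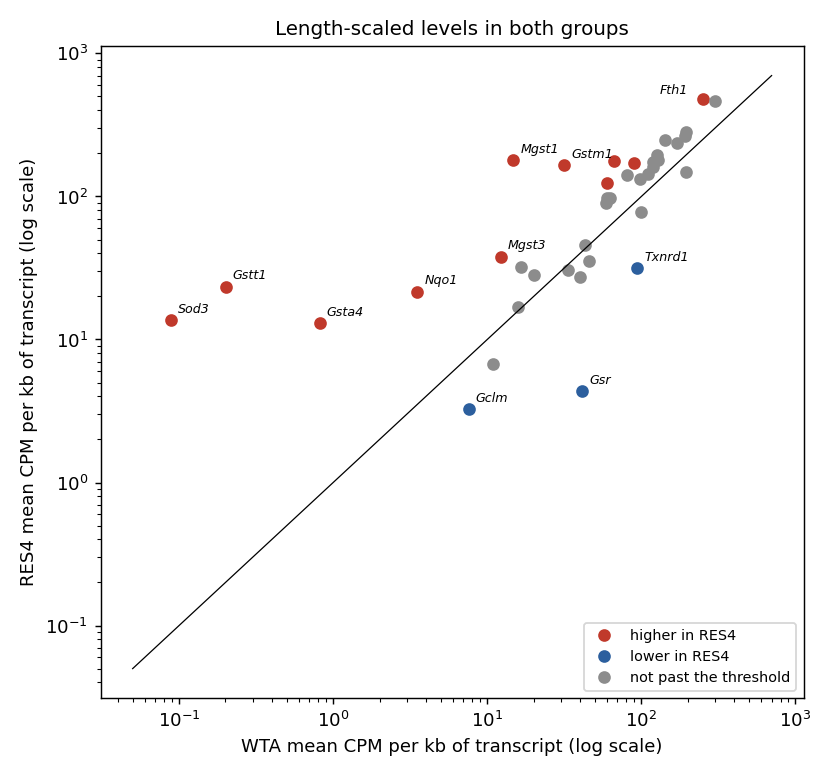
Mean CPM per kb of transcript in WTA (x axis) and RES4 (y axis), both on log scales, for the 39 tested genes, with the line of equal level. Red genes were called higher and blue genes lower in RES4, and all but 3 of the called genes are named. Sod3, Gstt1, Gsta4, Nqo1 and Mgst1 lie far above the line, Gsr and Txnrd1 below it, and the abundant genes at the upper right lie close to it.

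Many of the genes are short and abundant, and their replicates differed in a way that moved with read density. At 0.5 or more reads per transcript base there were 11 of the 39: Txn1, Gsto1, Gpx4, Sod1, Prdx1, Prdx2, Prdx4, Mt1, Mt2, Fth1 and Ftl1. In these, RES4 replicate 1 was lower than RES4 replicate 2 by a median log2 (CPM + 1) difference of -0.42, and WTA replicate 1 was higher than WTA replicate 2 by 0.31. Over the 464 tested genes at that density the medians were -0.29 and 0.24, and over all tested genes 0.04 and 0. The median log2 fold change of RES4 against WTA was 0.52 in the 11 genes, 0.35 in the 464 and 0.63 in the other 28 genes of the set. Fth1 was counted 1070 and 1191 times in the WTA libraries, although the second has 1.41 times the reads of the first. The cause of the pattern was not tested. With density offsets, which remove each library's trend along reads per base and were added after the data were seen, 10 genes rose, 3 fell and the median log2 fold change was 0.39.

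**Figure D4:**
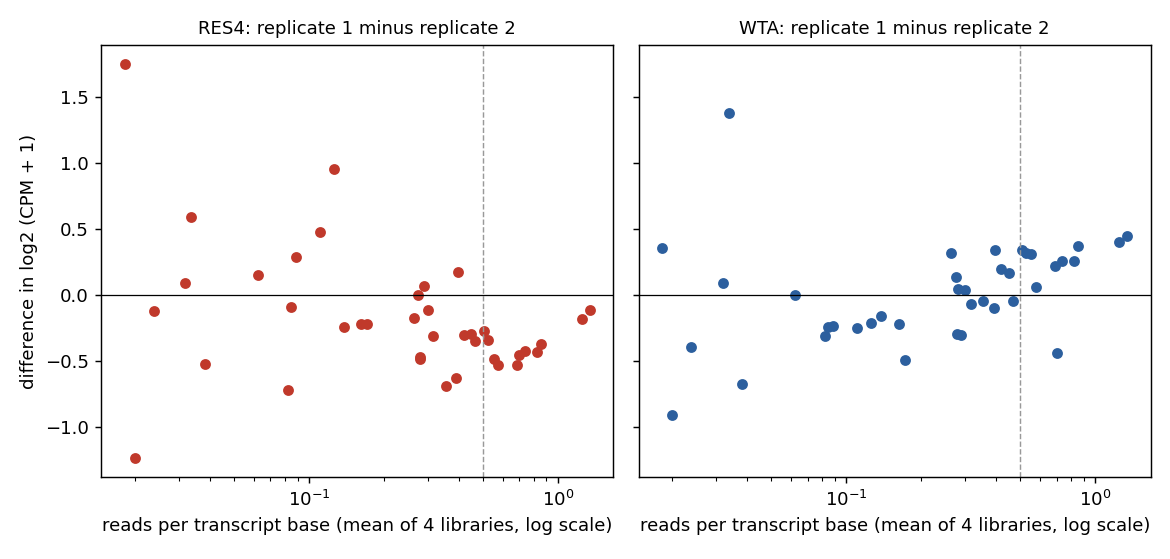
Difference in log2 (CPM + 1) between replicate 1 and replicate 2 for the 39 tested genes, RES4 left and WTA right, against reads per transcript base on a log scale; the dashed line marks 0.5. To its right the RES4 points lie below 0 and the WTA points above 0, except Sod1 in WTA.

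The count of called genes depended on single libraries. Without RES4 replicate 1, 19 genes rose and 2 fell, and Txn1, Gstm5, Gsto1, Gpx4, Gpx8, Prdx2, Prdx4 and Mt2 were the additions. Without WTA replicate 1 the counts were 7 and 2, and without WTA replicate 2 they were 6 and 2, with 9 and 8 of the 14 calls shared. A lone library is there assumed to vary like the other group, and 18.7% and 16.5% of all genes were called in those fits. Over all genes the share was 34.7% without RES4 replicate 1 and 30.4% without RES4 replicate 2, where 10 members of the set rose and 4 fell. With all 4 libraries it was 29.7% with relative log expression factors, 32.4% with library totals alone, 29.6% with abundance offsets, 30.5% with density offsets, 25% without the low-count filter, 27.6% with DESeq2 and 37.7% with the replicate number as a block.

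**Figure D5:**
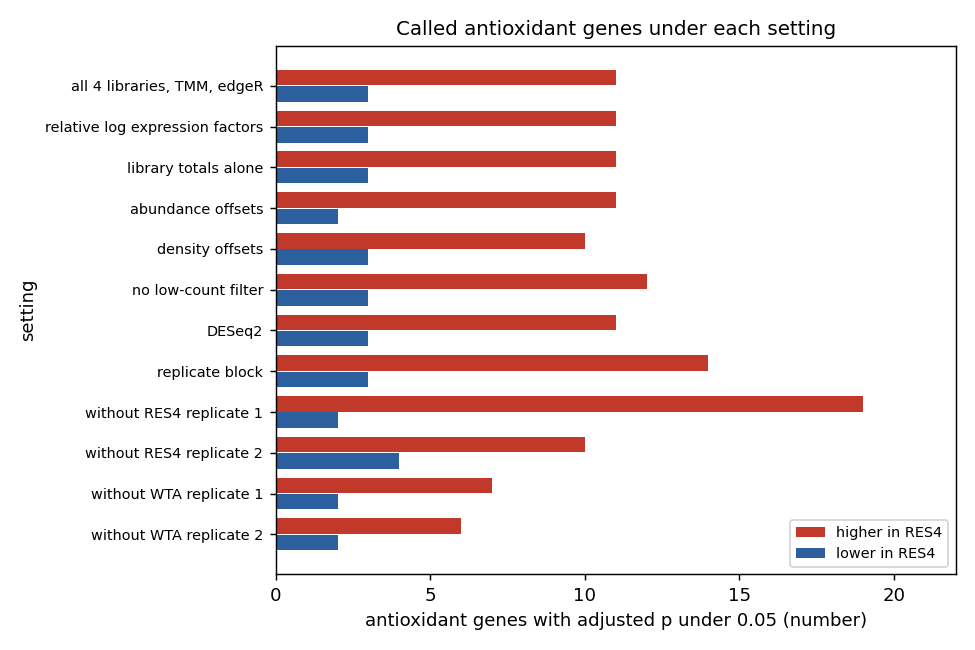
Number of the antioxidant genes called higher (red) and lower (blue) in RES4 under each setting. The bars for fits on all 4 libraries lie between 10 and 14 higher and at 2 or 3 lower, whereas leaving out 1 library gives from 6 to 19 higher.

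Other genes of these pathways were counted from lists of non-members. Of 78 tested, 21 were higher and 7 lower, 35.9% in all against 29.4% of all genes tested (15.5% higher, 13.9% lower), with a median log2 fold change of 0.24. Among 8 tested partners and regulators of NRF2, such as the small MAF factors and BACH1, edgeR called 0, with 2 at an unadjusted p under 0.05 and 0 with DESeq2. Of 19 other NRF2 targets 6 were higher and 2 lower. Abcc1, an exporter of glutathione conjugates, rose by 2.04 ± 0.27 (adjusted p = 1.40e-04), the carbonyl reductase gene Cbr3 by 3.30 ± 0.50 (adjusted p = 3.63e-04) and Htatip2 by 2.36 ± 0.42 (adjusted p = 0.00112).

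Of 19 other glutathione genes 8 were higher and 3 lower. Oplah, oxoprolinase, which returns glutamate from glutathione breakdown, rose by 4.60 ± 0.54 (adjusted p = 5.55e-05), beside Gstm4 and Gstt3 described above. The 3 lower genes were Chac1 (-2.06 ± 0.36, adjusted p = 9.03e-04), Ggct (-2.74 ± 0.50, adjusted p = 0.00123) and Glrx5 (-1.93 ± 0.38, adjusted p = 0.0022). Of 12 other thioredoxin and methionine sulfoxide genes 2 were higher and 0 lower: Txnip, the inhibitor of thioredoxin, rose by 2.60 ± 0.27 (adjusted p = 2.40e-05), and Msrb3, a methionine sulfoxide reductase, by 1.25 ± 0.27 (adjusted p = 0.00415), the latter not without WTA replicate 2 (adjusted p = 0.198). Of 5 tested oxidant-producing enzymes 4 rose. Xdh, xanthine dehydrogenase, rose by 4.78 ± 0.33 (adjusted p = 2.94e-06), from 12.9 and 10.8 CPM in WTA to 368 and 281 CPM in RES4. Aox1, aldehyde oxidase, rose by 4.40 ± 0.52 (adjusted p = 6.31e-05), and Cyba, a subunit of NADPH oxidases, by 3.35 ± 0.40 (adjusted p = 6.90e-05).

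Of 13 iron and heme genes 1 was higher and 1 lower. Hfe rose by 2.00 ± 0.55 (adjusted p = 0.0158) but was not called by DESeq2, and Slc11a2, the iron importer DMT1, had -1.12 ± 0.35 (adjusted p = 0.0285). Neither passed without WTA replicate 1 or without WTA replicate 2. Slc30a1, a zinc exporter that MTF1 induces along with the metallothioneins, had -1.58 ± 0.52 (adjusted p = 0.0358), which was lost without RES4 replicate 2 or without WTA replicate 1.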

How the data were processed

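Raw counts per gene symbol were used as the authors deposited them; per the submitters' processing notes DESeq2, HTSeq 0.7.2, Picard 1.62, TopHat2 2.1.1, bcl2fastq 2 and the build mm9 belong to the workflow, with roles, settings, strand handling and annotation not given in the sources used here. Per the labels, the protocols cover both a TruSeq kit and SMART-seq2 and do not assign them to libraries. The authors' deposited table holds log2 fold changes, adjusted p-values and worded calls. Only its calls and the adjusted p of Nqo1 are quoted. The deposited table of scaled counts was not used here.

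The tool was edgeR 4.0.16 (R 4.3.3): filterByExpr (minimum count 10), TMM scaling, glmQLFit and glmQLFTest without covariates, RES4 minus WTA, Benjamini-Hochberg adjustment over 12001 genes, threshold 0.05. Standard errors are the absolute log2 fold change over the root of F. A gene with 1 to 3 reads in a group is given as a ratio of pooled CPM with an exact 95% interval. Alternatives were relative log expression factors, library totals, abundance and density offsets (loess span 0.5), no filter, DESeq2 1.42.0, a block for replicate number, and leaving out single libraries. Density used transcript lengths from GENCODE M21, found for 99.4% of tested genes. The procedure was tested on simulated counts. The members and lists were chosen with earlier results of these data known. Each member is named, and of other genes at most the 3 called with the smallest adjusted p in a list. The lower genes of the glutathione list were added after their values were seen. Neighbours in the gene clusters were named after their values were seen. Sequences are from RefSeq.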

Additional observations from a re-analysis of the deposited data

How the results depend on the processing

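Depth limits the low genes: 3 reads, the most that a count of 0 allows, equal 0.505 to 1.14 CPM by library. With each library left out in turn, genes called over the whole table ranged from 1078 to 2024 higher and from 951 to 2323 lower, and antioxidant genes from 6 to 19 higher and from 2 to 4 lower. Abundance offsets left 2 antioxidant genes lower in place of 3. Library totals alone shifted the median over all tested genes by -0.14 (log2), and gave Srxn1 -0.06 and Cat -0.04 in place of 0.08 and 0.10. The sign also turned for Gpx3 (-0.69 to 0.28 with a library left out, and 0.01 with density offsets, which were chosen after seeing the data), Cat (-0.19 to 0.33, with -0.02 without RES4 replicate 2) and Gclc (-1.26 to 0.13), none of them called in any setting; the cause was not tested. Other signs among the 39 tested genes held in the alternatives run.

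Same-numbered replicates share only a number. Their deviations from the group means correlated at 0.228 across tested genes, which are not independent replicates. With the replicate number as a block, 14 antioxidant genes rose and 3 fell, with Gpx7, Gpx8 and Ftl1 added, and 37.7% of all genes were called. It ended no call among these genes.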
